A study of Mus musculus with 6 samples.

Results

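Adult haemoglobin genes and Alas2, the genes that red cells and their precursors use to make haemoglobin, were followed as a measure of blood content in 6 mouse tumours profiled by bulk RNA sequencing. They were taken by symbol, as Hba-a1, Hba-a2, Hbb-bs, Hbb-bt and Alas2. Of these 5 symbols, 4 matched an Entrez number among the 15295 genes of the count table, and all 4 passed the filter on low counts with 14498 genes in all. Hbb-bt matched no row and was not analysed here. A further adult beta globin row, Hbb-b1, is set beside them because beta globin reads were counted there too. Which locus that row counts could not be settled, and it may hold reads of Hbb-bt, so its level, the beta sums and the share of Hbb-bs depend on an unknown assignment.

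Each sample was a whole tumour raised from cultured mouse bladder cancer cells of the line NA13 and labelled a xenograft. The strain is C57BL/6. In the labels, 3 carried an shRNA against Ddr2, the collagen receptor kinase that the study lowers, and 3 carried a scrambled shRNA. All 6 also received IgG. Libraries are named here by shRNA and replicate number, as shDdr2 1 to 3 and scrambled 1 to 3. The labels do not say whether replicates came from separate animals, whether each shRNA line is 1 clone, or which animals bore the tumours, so that the p-values reflect only how these samples vary, and some of that variation may be technical. The comparison asks what differs between whole tumours with and without the shRNA against Ddr2.

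Totals ran from 15976000 to 19522985 counts in the shDdr2 libraries and from 15560571 to 18917186 in the scrambled libraries. Levels are in CPM, the usual counts scaled to library size, with totals adjusted by TMM. Ddr2 itself was at 4.84 to 28.6 CPM in the shDdr2 libraries and at 6.42 to 20.5 CPM in the scrambled libraries. The ranges overlapped, and no lower level of the target gene was seen in the shDdr2 libraries (log2 fold change 0.27, SE 0.66). Its 95% interval, -1.27 to 1.81, does not exclude a lower level. Every direction is between libraries as labelled. The keratins Krt5 and Krt14 of basal epithelium stood between 4083 and 5954 CPM in all 6 libraries, Epcam of epithelia between 192 and 286 CPM, and Upk2, a urothelial uroplakin, at no more than 4.19 CPM. Libraries of 1 group were far from alike, with shDdr2 1 lowest of the 6 in 34.6% of all genes tested.

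Haemoglobin is a tetramer of alpha and beta chains, each holding a haem group that binds oxygen. In mice the adult alpha chains come from the neighbouring copies Hba-a1 and Hba-a2, and the adult beta chains from a pair of neighbouring copies whose names depend on the haplotype, Hbb-bs and Hbb-bt in the haplotype of C57BL/6 mice and Hbb-b1 and Hbb-b2 in another. Alas2 encodes the erythroid form of 5-aminolevulinate synthase, which makes the first precursor of haem. These genes are transcribed in erythroid precursors, and young red cells keep their messenger RNA after losing the nucleus, so in a solid tissue the transcripts are commonly read as blood.

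The copies are near-identical, which bears on how reads are shared out between them. In the GENCODE M21 transcripts, Hba-a1 and Hba-a2 differ at 1 of 429 coding bases, and 82.5% of the 280 stretches of 150 bases, the read length, are the same in both. Hbb-bs and Hbb-bt differ at 1 of 444 coding bases, with 90.5% of 295 stretches shared. The alpha copies are shown around their one difference, which is in capitals, from coding base 361 to 401.
Hba-a1: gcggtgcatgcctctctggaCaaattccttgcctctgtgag
Hba-a2: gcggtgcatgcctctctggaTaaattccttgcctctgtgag
How the authors' counting divided such reads is not given in the sources used here. The single rows of a chain are therefore uncertain, and sums over the copies are given beside them.

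The start sites are shown as background on the members, and any part of their motifs in the levels was not tested. Each window holds the 150 bases before the RefSeq start on GRCm38.p6, at chr11:32283522-32283671 on the plus strand for Hba-a1, chr7:103827929-103828078 on the minus strand for Hbb-bs and chrX:150547267-150547416 on the plus strand for Alas2. Capitals mark matches to GATA words (AGATAA or AGATAG or the same with T as the first base), to CACCC and to CCAAT, each on both strands, and to TATAA on the strand of the gene.
Hba-a1: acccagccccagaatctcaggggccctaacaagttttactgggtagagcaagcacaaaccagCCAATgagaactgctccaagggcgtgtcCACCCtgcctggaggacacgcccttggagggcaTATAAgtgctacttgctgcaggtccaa
Hbb-bs: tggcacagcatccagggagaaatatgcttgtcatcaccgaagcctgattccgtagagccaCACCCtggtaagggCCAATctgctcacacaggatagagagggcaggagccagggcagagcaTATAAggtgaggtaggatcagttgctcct
Alas2: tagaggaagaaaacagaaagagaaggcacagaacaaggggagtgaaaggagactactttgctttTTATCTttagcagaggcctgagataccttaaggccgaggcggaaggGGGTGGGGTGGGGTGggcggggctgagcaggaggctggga
Both globin windows hold 1 CACCC, 1 CCAAT and 1 TATAA match and no GATA word. The Alas2 window holds 1 GATA word and 3 CACCC matches on the opposite strand, and no CCAAT or TATAA. Among 32851 windows of this length before RefSeq starts, 37.4% hold CACCC, 24.5% CCAAT, 16.0% a GATA word and 9.99% TATAA. Hba-a2 is not shown, since its 300 bases around the start share an unbroken run of 297 with Hba-a1.

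Every haemoglobin row and Alas2 stood far higher in 1 tumour, scrambled 1, than in any other library. Hba-a2, the alpha row with the most counts, was at 27.8, 12.03 and 25.9 CPM in shDdr2 1 to 3 and at 271, 30.1 and 22.6 CPM in scrambled 1 to 3. Hba-a1 was at 13.9, 6.67 and 10.05 CPM in shDdr2 1 to 3 and at 149, 11.5 and 13.01 CPM in scrambled 1 to 3. Apart from scrambled 1, the alpha rows of the 2 groups lay close together and overlapped. Summed over both copies, alpha globin held 577, 384 and 626 counts in shDdr2 1 to 3 and 7787, 695 and 567 counts in scrambled 1 to 3.

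The beta globin rows showed the same high library. Hbb-bs was at 19.4, 4.92 and 9.18 CPM in shDdr2 1 to 3 and at 154, 12.1 and 8.67 CPM in scrambled 1 to 3. Hbb-b1 was at 36.3, 9.69 and 12.8 CPM in shDdr2 1 to 3 and at 273, 24.5 and 15.8 CPM in scrambled 1 to 3. After scrambled 1, both beta rows were highest in shDdr2 1 and lowest in shDdr2 2, and the groups overlapped.

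Alas2 was at 1.52, 1.51 and 1.49 CPM in shDdr2 1 to 3, from 21, 31 and 26 counts. It was at 22.5, 2.39 and 1.76 CPM in scrambled 1 to 3, from 418, 40 and 28 counts. It was the one member whose groups did not overlap, as in 4.32% of all genes tested, or 2.11% with all 3 shDdr2 libraries lower. The gap between the groups was narrow, since shDdr2 3 held 26 counts against 28 in scrambled 3, whose exact Poisson intervals overlap.

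**Figure D1:**
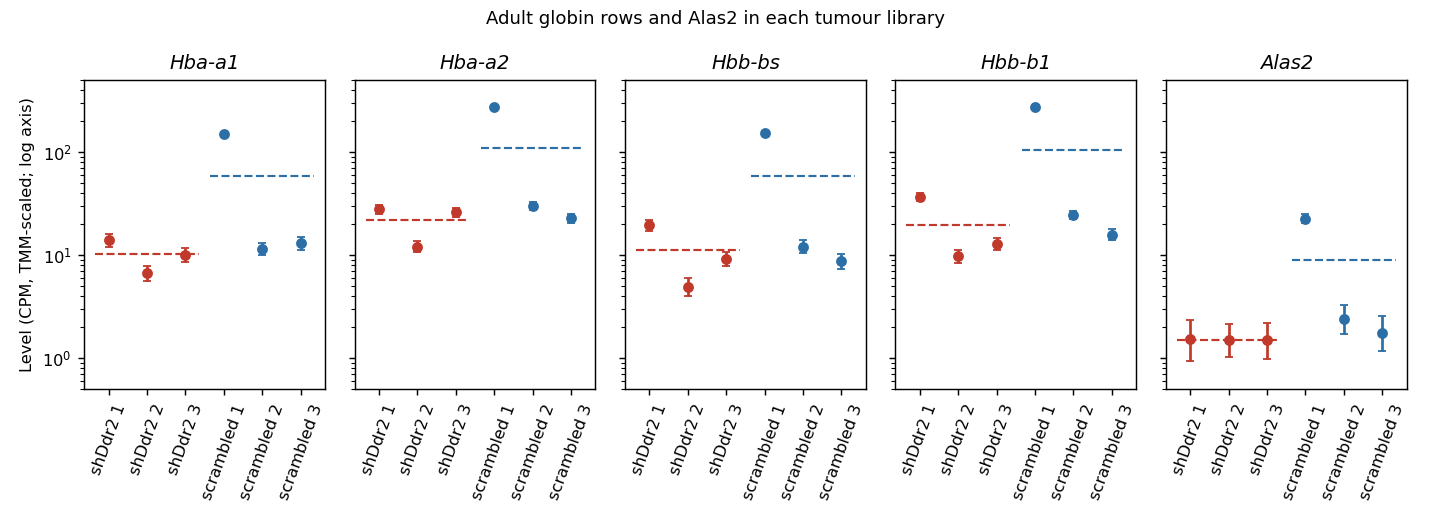
Level in CPM on a log axis of the 4 globin rows and Alas2 in each library, with exact 95% Poisson intervals for counting error and dashed group means (3 shDdr2 libraries in red, 3 scrambled in blue). In each panel scrambled 1 stands far above the other libraries, and it carries the scrambled mean upward.

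Haemoglobin took a small part of each library. The 4 rows together held 0.00844%, 0.00350% and 0.00611% of the counts in shDdr2 1 to 3. In scrambled 1 to 3 they held 0.0830%, 0.00810% and 0.00614%, with an exact binomial 95% interval of 0.0817% to 0.0843% for scrambled 1. Such intervals cover counting error only. In bulk tumours, fewer red cells and less RNA per red cell cannot be told apart.

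Per kilobase of coding transcript, Hba-a2 was the highest member in every library, at 21.7 to 50.2 CPM per kb in the shDdr2 libraries and 40.8 to 489 in the scrambled libraries. Hbb-bs and Hba-a1 followed, at 7.84 to 30.9 and 9.55 to 19.8 CPM per kb in the shDdr2 libraries and at 13.8 to 245 and 16.4 to 214 in the scrambled libraries. Hbb-bs was above Hba-a1 in 4 libraries and below it in 2, so their order was not settled. Alas2 was lowest throughout, at 0.733 to 0.744 CPM per kb in the shDdr2 libraries and at 0.864 to 11.1 in the scrambled libraries.

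No member passed the edgeR quasi-likelihood test adjusted over all genes. Means ± SD (n = 3 each) were 10.2 ± 3.60 CPM in shDdr2 and 57.9 ± 79.1 CPM in scrambled libraries for Hba-a1, and 21.9 ± 8.60 CPM in shDdr2 and 108 ± 141 CPM in scrambled libraries for Hba-a2. They were 11.2 ± 7.45 CPM in shDdr2 and 58.1 ± 82.7 CPM in scrambled libraries for Hbb-bs, and 1.51 ± 0.0124 CPM in shDdr2 and 8.90 ± 11.8 CPM in scrambled libraries for Alas2. The scrambled SD exceeded the scrambled mean in all 4 members. The log2 fold changes, shDdr2 minus scrambled, were -2.51 (SE 1.01, 95% interval -4.87 to -0.15) for Hba-a1 and -2.30 (SE 0.96, -4.54 to -0.061) for Hba-a2. For Hbb-bs the value was -2.39 (SE 1.13, -5.04 to 0.26) and for Alas2 -2.56 (SE 0.98, -4.86 to -0.26).

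The adjusted edgeR p was 1.00 for each member, and edgeR called 0 of 14498 genes (0%), against 40 of 14976 for DESeq2. Unadjusted edgeR p-values were 0.0399, 0.0454, 0.0710 and 0.0336 for Hba-a1, Hba-a2, Hbb-bs and Alas2, so 3 of 4 members were under 0.05, as were 209 of all genes tested (1.44%, and 0.448% on the lower side). Summed alpha globin had a log2 fold change of -2.37 (SE 0.97) and an unadjusted edgeR p of 0.0426. Hbb-bs with Hbb-b1 had -2.40 (SE 1.12) and 0.0671, and both had an adjusted p of 1.00. Exact two-sided permutation tests of log2 CPM over the 20 assignments of the libraries gave p = 0.3 for Hba-a1, 0.4 for Hba-a2, 0.5 for Hbb-bs and 0.1 for Alas2, where 0.1 is the smallest possible.

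Without scrambled 1 the differences were much smaller. In that fit the log2 fold changes were -0.25 (SE 0.39) for Hba-a1, -0.25 (SE 0.42) for Hba-a2, 0.13 (SE 0.61) for Hbb-bs and -0.45 (SE 0.40) for Alas2. Their 95% intervals were -1.21 to 0.71, -1.28 to 0.78, -1.37 to 1.63 and -1.42 to 0.52, so that the sign of Hbb-bs turned and no interval left out 0. Summed alpha globin then stood at -0.25 (SE 0.38) and the summed beta rows at 0.035 (SE 0.61). Leaving out any other library kept every member between -3.05 and -2.01. The unadjusted p was over 0.05 for all 4 members without any 1 of the shDdr2 libraries (0.0664 to 0.180) and under 0.05 for all 4 without scrambled 2 or without scrambled 3.

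The fits above did not pair libraries, and the labels do not say what the replicate number stands for. Pairing by that number was tried as an alternative. If same-numbered libraries are pairs, leaving out scrambled 1 alone leaves shDdr2 1 without its partner. Within the 3 pairs by number, Hba-a1, Alas2 and Hbb-b1 were lower in the shDdr2 library in all 3. Hba-a2 and Hbb-bs were lower in 2 and slightly higher in the pair numbered 3. With the replicate number as a block the log2 fold changes of the members were smaller, between -1.57 and -1.42, and 0 of 4 had an unadjusted p under 0.05 (0.0578 to 0.104). The blocked 95% intervals left out 0 for Hbb-b1 (-2.79 to -0.25) and for the summed beta rows (-2.81 to -0.13), with an adjusted p of 1.00. On voom weights, too, 0 of 4 members were under 0.05 (0.149 to 0.240).

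**Figure D2:**
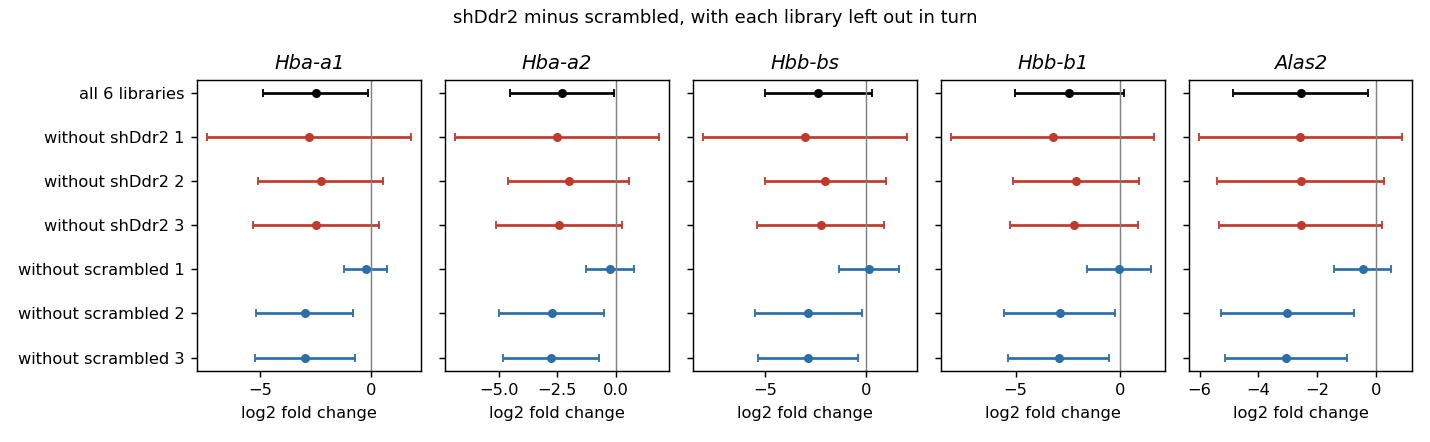
Log2 fold change (shDdr2 minus scrambled) with its 95% interval from edgeR, for all 6 libraries (black) and with each library left out in turn (red, an shDdr2 library left out; blue, a scrambled one). The estimates lie near 0 where scrambled 1 is left out, and below -2 in every other panel row.

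DESeq2 gave no p-value for any member. Of 15295 genes, 22 had none under its rule on single extreme libraries, and these included Hba-a1, Hba-a2, Hbb-bs, Hbb-b1 and Alas2. Among the 22, these 5 were the ones with their highest level in scrambled 1, while the other 17 had theirs elsewhere. With that rule switched off, the unadjusted DESeq2 p was 0.00445 for Hba-a1, 0.00680 for Hba-a2, 0.0144 for Hbb-bs and 0.00359 for Alas2. The adjusted p then ran from 0.538 for Alas2 to 1.00 for Hbb-bs, so DESeq2 called 0 members, against 0.0392% of genes on the lower side.

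Within a library, the shares of the rows varied less than the total. These shares depend on how the counting divided reads of near-identical copies. Hba-a1 made up 33.3%, 35.7% and 28.0% of the alpha counts in shDdr2 1 to 3 and 35.5%, 27.6% and 36.5% in scrambled 1 to 3. Hbb-bs made up 34.8%, 33.7% and 41.8% of the counts of both beta rows in shDdr2 1 to 3 and 36.0%, 33.0% and 35.5% in scrambled 1 to 3. Scrambled 1 lay inside the range of the other libraries in both. Exact permutation tests between the groups gave p = 0.8 for the Hba-a1 share and p = 0.7 for the Hbb-bs share. For Hba-a1 the binomial 95% intervals of scrambled 2 (24.3% to 31.1%) and scrambled 1 (34.5% to 36.6%) did not meet.

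The balance of alpha and beta varied more. Alpha rows held 42.8%, 56.1% and 62.0% of the globin counts in shDdr2 1 to 3 and 49.6%, 53.2% and 59.3% in scrambled 1 to 3. Binomial 95% intervals of shDdr2 1 (40.1% to 45.5%) and shDdr2 3 (59.0% to 65.0%) did not meet, so these libraries differed by more than counting error. The groups overlapped, with means of 53.7 ± 9.87% in shDdr2 and 54.0 ± 4.91% in scrambled libraries (SD, n = 3, exact permutation p = 1).

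Alas2 kept pace with the globin rows in scrambled 1. It held 1.53%, 4.34% and 2.51% of the Alas2 and globin counts in shDdr2 1 to 3 and 2.59%, 2.97% and 2.85% in scrambled 1 to 3. The highest and lowest shares were both in shDdr2 libraries, with intervals of 2.96% to 6.10% and 0.951% to 2.33%. Group means were 2.79 ± 1.42% in shDdr2 and 2.80 ± 0.191% in scrambled libraries (SD, n = 3, exact permutation p = 1).

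**Figure D3:**
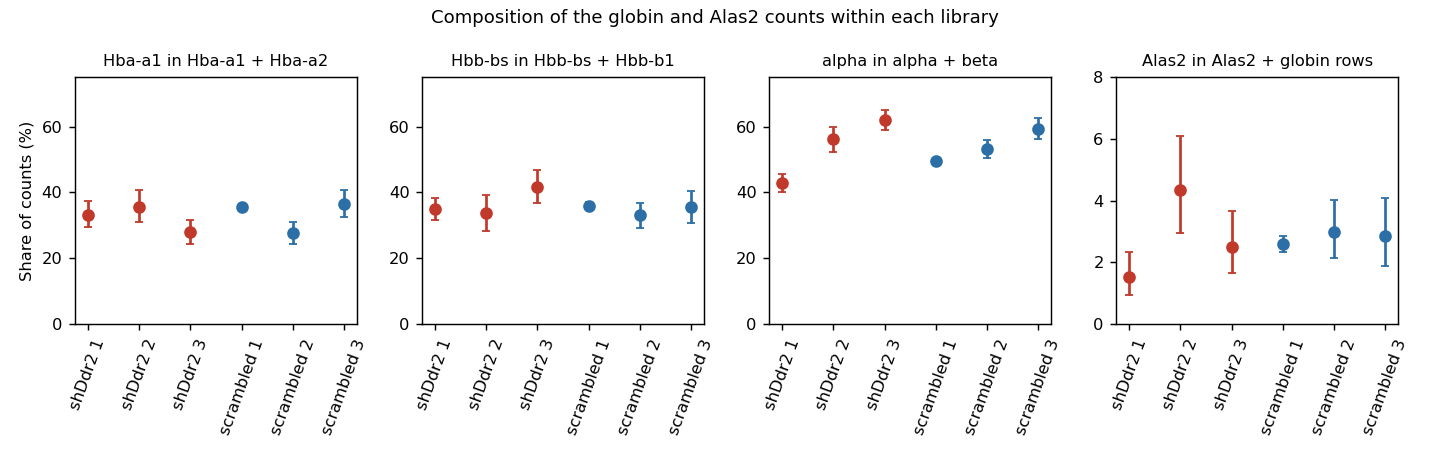
Share of counts in percent with exact binomial 95% intervals, for each library (shDdr2 in red, scrambled in blue). Scrambled 1 lies within the range of the other libraries in all 4 panels, while the alpha share runs from 42.8% in shDdr2 1 to 62.0% in shDdr2 3.

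The other genes of haem synthesis did not share the pattern of Alas2. All 12 genes listed for the pathway were tested, 0 were called in either direction by edgeR or DESeq2, and 0 had an unadjusted p under 0.05. Their median log2 fold change was 0.031, against 0.040 over all genes tested. The 12 stood at 9.24 to 80.9 CPM over the 6 libraries, while Alas2 reached 22.5 CPM in scrambled 1 from 1.49 to 2.39 CPM elsewhere. On such levels a rise of that size in CPM would be a smaller fold change than in Alas2. Any red cell part of their levels was not tested. Alas1, the housekeeping form of the same enzyme, was at 68.0, 79.0 and 67.2 CPM in shDdr2 1 to 3 and at 67.7, 80.8 and 72.1 CPM in scrambled 1 to 3. Abcb10, a mitochondrial transporter needed for erythroid haem synthesis, was at 80.9, 63.7 and 53.0 CPM in shDdr2 1 to 3 and at 78.2, 58.9 and 56.5 CPM in scrambled 1 to 3. Abcb6, a porphyrin transporter, had the smallest p of the list, with 28.3, 20.3 and 17.6 CPM in shDdr2 1 to 3 and 15.9, 18.9 and 16.8 CPM in scrambled 1 to 3 (log2 fold change 0.36, SE 0.25, and 0.14 without shDdr2 1). Of the 12, 1 (Ppox, protoporphyrinogen oxidase) had its highest level in scrambled 1, at 47.4 CPM (8.33%, against 14.5% of all genes tested).

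**Figure D4:**
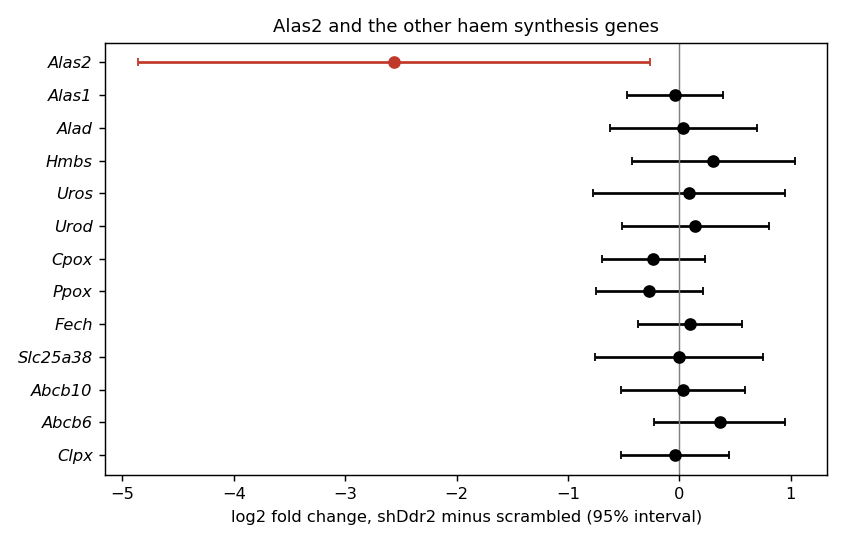
Log2 fold change (shDdr2 minus scrambled) with its 95% interval from edgeR, for Alas2 (red) and the 12 other haem synthesis genes (black), over all 6 libraries. The 12 intervals all include 0, and Alas2 lies at -2.56 with a wide interval.

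Other red cell genes were not high as a list in scrambled 1, where their sum stood at -0.045 from the median library on the log2 scale. Of 34 listed membrane and erythroid genes, 19 had a row and 16 were tested. The 15 without a row were not analysed here. Rhag, Gata1 and Icam4 had rows but too few counts to test, with at most 7.17 a library on average. Rhag, a red cell ammonia channel, was at 0.0722, 0.438 and 0.172 CPM in shDdr2 1 to 3 and at 0.539, 0.358 and 0.251 CPM in scrambled 1 to 3. Of the 16, 2 had their highest level in scrambled 1, Klf1 and Tspan33 (12.5%, against 14.5% of all genes tested). Tspan33 was at 2.60, 2.24 and 1.21 CPM in shDdr2 1 to 3 and at 4.15, 1.61 and 2.51 CPM in scrambled 1 to 3. Among the untested genes, Rhag was also highest in scrambled 1, while Gata1 was lowest there, at 0.0539 CPM. Klf1, an erythroid transcription factor that acts on the beta globin gene, was at 0.650, 0.438 and 0.861 CPM in shDdr2 1 to 3 and at 0.971, 0.717 and 0.629 CPM in scrambled 1 to 3. These rest on 9 to 18 counts a library. Aqp1, a water channel of red cells and endothelium, was at 23.0, 68.7 and 89.4 CPM in shDdr2 1 to 3 and at 49.5, 48.0 and 54.2 CPM in scrambled 1 to 3. Slc25a37, the mitochondrial iron importer, was at 46.4, 70.2 and 64.1 CPM in shDdr2 1 to 3 and at 68.1, 79.1 and 64.5 CPM in scrambled 1 to 3.

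Ank1, which encodes ankyrin of the red cell skeleton and also a small muscle isoform, differed in the opposite direction. It was at 1.81, 8.48 and 1.44 CPM in shDdr2 1 to 3 and at 0.270, 0.239 and 0.189 CPM in scrambled 1 to 3 (log2 fold change 4.03, SE 0.85), with an unadjusted edgeR p of 0.00185 and an adjusted p of 1.00. DESeq2 called it, with an adjusted p of 0.00167, as it did 0.267% of genes. The summed level of 6 skeletal muscle genes ran the same way, at 793, 2555 and 341 CPM in shDdr2 1 to 3 and 8.04, 49.9 and 75.9 CPM in scrambled 1 to 3, and its part in the Ank1 value was not tested. Myoglobin, Mb, the oxygen store of muscle, was at 10.2, 17.4 and 5.17 CPM in shDdr2 1 to 3 and at 1.62, 5.74 and 7.54 CPM in scrambled 1 to 3, so that its lowest level was in the library with the most haemoglobin. Cygb, cytoglobin of fibroblasts, was at 1.66, 7.36 and 20.6 CPM in shDdr2 1 to 3 and at 4.10, 12.7 and 10.2 CPM in scrambled 1 to 3.

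Markers of vessels and of other blood cells differed in how they stood beside haemoglobin, and neither edgeR nor DESeq2 called any of the endothelial, platelet or neutrophil genes tested (0 of each list). Their part in the haemoglobin values was not tested. Summed over 12 endothelial markers, the level was 133, 342 and 608 CPM in shDdr2 1 to 3 and 219.6, 396 and 396 CPM in scrambled 1 to 3. None of the 12 (0) was highest in scrambled 1, against 14.5% of all genes tested. In shDdr2 1, 11 were lowest (91.7%, against 34.6% of all genes tested). That library had the second highest share of haemoglobin counts, 0.00844%, close to 0.00810% in scrambled 2. Pecam1, an adhesion molecule of endothelium, was at 28.2, 66.1 and 120.4 CPM in shDdr2 1 to 3 and at 42.3, 82.6 and 79.5 CPM in scrambled 1 to 3. Vwf, von Willebrand factor, was at 11.6, 45.9 and 76.3 CPM in shDdr2 1 to 3 and at 23.9, 66.4 and 71.0 CPM in scrambled 1 to 3. Tek, an angiopoietin receptor, had the smallest p of this list (log2 fold change 0.92, SE 0.57, and 0.35 without shDdr2 3).

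Platelet genes gave no common pattern beside haemoglobin. Their sum over 6 tested genes was 51.3, 27.9 and 48.2 CPM in shDdr2 1 to 3 and 44.3, 39.3 and 48.0 CPM in scrambled 1 to 3. Of the 6, 1 was highest in scrambled 1 (16.7%, against 14.5% of all genes tested). That gene was Ppbp, a platelet granule chemokine, at 2.96, 1.46 and 9.70 CPM in shDdr2 1 to 3 and at 20.1, 2.81 and 8.42 CPM in scrambled 1 to 3. Pf4, another platelet chemokine that macrophages also make, was lowest in scrambled 1, at 26.2, 11.4 and 24.9 CPM in shDdr2 1 to 3 and at 9.55, 17.5 and 22.4 CPM in scrambled 1 to 3. Itga2b, the platelet integrin chain, was at 20.4, 10.8 and 7.92 CPM in shDdr2 1 to 3 and at 11.9, 13.4 and 12.6 CPM in scrambled 1 to 3.

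Neutrophil genes summed to 165, 89.9 and 373 CPM in shDdr2 1 to 3 and to 509.7, 235 and 464 CPM in scrambled 1 to 3, over 8 tested genes. The sum was highest in scrambled 1, where Ltf held 323.5 CPM of it. It was lower in the shDdr2 library of all 3 same-numbered pairs. The median log2 fold change of the list was -0.89, against 0.040 over all genes tested, with 6 of 8 genes below 0. The list did not move as one. Csf3r, counted below 0, was at -0.081 (SE 0.52), while Cxcr2 was at 0.14 (SE 0.28) and Mmp8 at 0.41 (SE 0.73). S100a8 and S100a9, partner subunits of calprotectin, were the 2 of 8 whose groups did not overlap, as in 4.32% of all genes. Of the 8, 2 were highest in scrambled 1, S100a9 and Ltf (25.0%, against 14.5% of all genes tested). S100a8 was at 8.52, 2.05 and 12.5 CPM in shDdr2 1 to 3 and at 13.9, 15.1 and 16.8 CPM in scrambled 1 to 3 (log2 fold change -0.995, SE 0.57). S100a9 was at 12.1, 5.85 and 17.5 CPM in shDdr2 1 to 3 and at 55.6, 21.2 and 26.6 CPM in scrambled 1 to 3 (log2 fold change -1.54, SE 0.50). Its unadjusted edgeR p was 0.0173 and its adjusted p 1.00, and without scrambled 1 its log2 fold change was -1.001. Ltf, lactoferrin, was at 43.3, 32.5 and 142 CPM in shDdr2 1 to 3 and at 323.5, 48.8 and 137 CPM in scrambled 1 to 3. Its log2 fold change was -1.22 (SE 0.77), and -0.35 without scrambled 1. Mmp9, a protease of neutrophils and macrophages, was highest in scrambled 3, at 257 CPM.

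**Figure D5:**
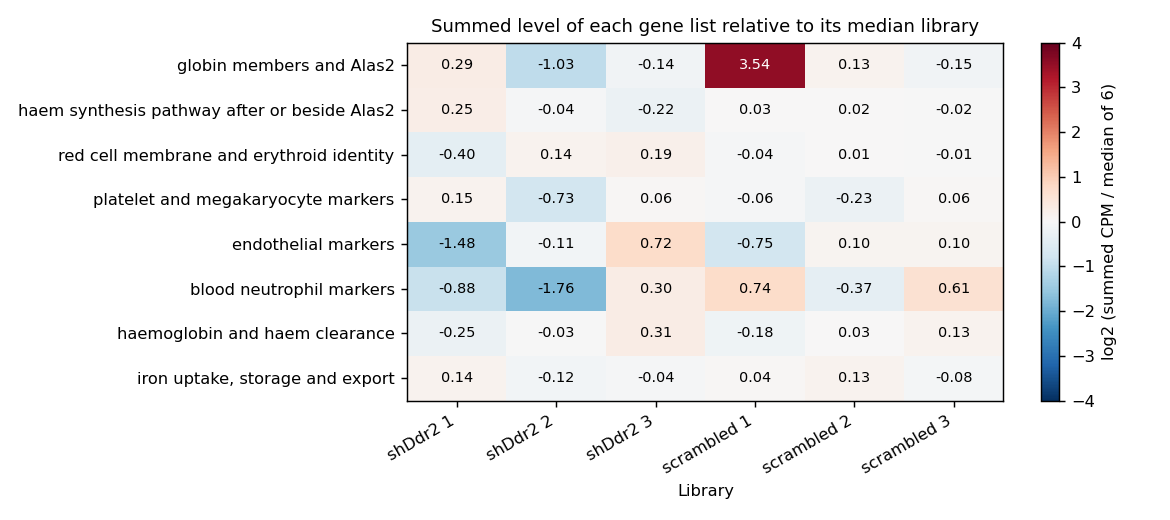
Log2 of the summed CPM of each gene list in a library over the median of that list in the 6 libraries (columns, shDdr2 then scrambled). The globin members with Alas2 stand at 3.54 in scrambled 1, and of the lists plotted the next farthest there are the endothelial markers at -0.75 and the neutrophil markers at 0.74. The list of other globins, which holds Hbb-b1, is not plotted and stands at 2.77 there.

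Genes that clear haemoglobin and haem, and genes of iron handling, were not high as lists in scrambled 1, where their sums stood at -0.18 and 0.041 from the median library on the log2 scale. Of 12 tested clearance genes and 14 iron genes, 2 of each list were highest there (16.7% and 14.3%, against 14.5% of all genes tested). For either list edgeR and DESeq2 called 0 genes, and 0 had an unadjusted edgeR p under 0.05. Cd163, the macrophage receptor that takes up haemoglobin bound to haptoglobin, was at 1.37, 10.5 and 16.1 CPM in shDdr2 1 to 3 and at 1.94, 16.5 and 21.1 CPM in scrambled 1 to 3, so the library with the most haemoglobin had the second lowest level. Hp, haptoglobin itself, was lowest there, at 4.91, 6.28 and 42.3 CPM in shDdr2 1 to 3 and at 3.72, 27.8 and 30.5 CPM in scrambled 1 to 3. Both genes were also low in shDdr2 1. Hmox1, the inducible haem oxygenase, was at 67.9, 45.2 and 101.7 CPM in shDdr2 1 to 3 and at 56.3, 76.4 and 83.4 CPM in scrambled 1 to 3. Lrp1, a receptor that takes up haem bound to haemopexin, was at 80.5, 284 and 398 CPM in shDdr2 1 to 3 and at 215, 228 and 301 CPM in scrambled 1 to 3. Bach1, a haem-sensing repressor of Hmox1, was at 106, 112 and 93.7 CPM in shDdr2 1 to 3 and at 82.2, 124 and 114 CPM in scrambled 1 to 3. The receptor and the oxygenase thus showed no shared high library with the globin rows. Abcg2, a transporter that exports porphyrins, was highest in shDdr2 1, at 36.4 CPM (log2 fold change 1.01, SE 0.74).

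Iron genes summed to between 1783 and 2138 CPM in the shDdr2 libraries and between 1839 and 2125 CPM in the scrambled libraries. Fth1, the ferritin heavy chain, was at 1171, 1004 and 985 CPM in shDdr2 1 to 3 and at 1115, 1184 and 924 CPM in scrambled 1 to 3. Tfrc, the transferrin receptor, was at 468, 234 and 213 CPM in shDdr2 1 to 3 and at 322, 374 and 338 CPM in scrambled 1 to 3. Hfe, which binds that receptor, had the smallest p of the list (log2 fold change 0.37, SE 0.34, and 0.13 without scrambled 1). Median log2 fold changes were 0.013 for the clearance genes, -0.015 for the iron genes and -2.45 for the 4 members.

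Few genes elsewhere had a profile close to that of haemoglobin over the 6 libraries. The measure was Pearson's r between log2 CPM and the mean log2 CPM of Hba-a1, Hba-a2 and Hbb-bs, and 83 of 12313 other genes (0.674%) exceeded 0.9. Alas2 had r = 0.96 and Hbb-b1 r = 0.98. The 10 closest other genes were Ap4m1, ND6, Zfp174, Tmco6, Pttg1ip, Lamp1, Chmp1b, Tymp, Net1 and Herpud1, with r from 0.97 to 0.98. Their range was far smaller than that of haemoglobin. Ap4m1, an adaptor complex subunit, was at 25.6, 22.7 and 23.8 CPM in shDdr2 1 to 3 and at 32.1, 24.8 and 23.1 CPM in scrambled 1 to 3. ND6, a mitochondrial subunit of complex I that lies beside and antisense to other mitochondrial genes, was at 663, 607 and 641 CPM in shDdr2 1 to 3 and at 825, 662 and 614 CPM in scrambled 1 to 3, and with the strand setting of the counting unknown its values are uncertain. The 10 were not stable: 0 of them stayed among the closest 10 without scrambled 1, where Chmp1b ranked highest at 50 of the 12313 candidates, and 1 to 5 stayed when any other library was left out. With Alas2 as the pattern, 2 of the 10 were shared. These likenesses are descriptions.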

How the data were processed

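The members and gene lists were chosen with earlier results of these data known. The authors deposited counts as whole numbers by Entrez identifier, possibly estimates that they rounded, and log2 values for each library. Bowtie2 2.1.0, RSEM 1.2.31, GRCm38.p5 and limma appear, without their roles, in the submitters' processing notes. The sources used here give no annotation, gene filter or strand setting. The lowest count in the table is 1. The deposited log2 values returned the count, within 0.5, in 91753 of 91770 values. Symbols came from a RefSeq table by Entrez number (14876 matched, 419 did not), sequences from RefSeq on GRCm38.p6 and GENCODE M21.

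Counts were filtered with filterByExpr (14498 of 15295 genes kept), scaled by TMM and tested with the quasi-likelihood test of edgeR 4.0.16 (robust) in R 4.3.3, two-sided, with Benjamini-Hochberg adjustment and a threshold of 0.05. DESeq2 1.42.0 and limma 3.58.1 were alternatives, as were other scalings, no filter, a replicate block and leaving out each library. The edgeR script was tested on simulated data.

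Same-numbered libraries deviated together from their group means, with r of 0.289, 0.273 and 0.228 for numbers 1, 2 and 3, taken from the titles. Of the other pairings, shDdr2 2 with scrambled 3 had r of 0.248 and the rest were below 0. Shares have exact binomial and counts exact Poisson 95% intervals. Within groups no pair of libraries agreed within counting noise (chi-square divided by its degrees of freedom 26.1 to 242). Genes named were the members, in each other list the smallest p and the 2 highest counts, and the 10 closest profiles with an average log2 CPM of at least 1. Mb, Klf1, Rhag, Ppox, Hmox1, Cd163, Hp, S100a8, Csf3r, Cxcr2, Mmp8, the muscle genes and the epithelial markers were named after values had been seen. The same holds for Tspan33 and Gata1.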

Additional observations from a re-analysis of the deposited data

How the results depend on the processing

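edgeR called 0 genes under every scaling and filter tried, with the block and without any 1 library (0 to 0), and limma on voom weights called 0, while DESeq2 called 40. Leaving out each library in turn gave -3.00 to -0.25 for Hba-a1, -2.78 to -0.25 for Hba-a2, -3.05 to 0.13 for Hbb-bs and -3.05 to -0.45 for Alas2. Summed alpha globin ran from -2.85 to -0.25, and the sum of Hbb-bs and Hbb-b1 from -3.15 to 0.035. The value nearest or past 0 was in each case that without scrambled 1. Other scalings, no filter and DESeq2 moved members little, while tests on a log scale gave less negative values, from -1.63 to -1.50 on voom weights and from -1.58 to -1.40 on the deposited log2 values (added after the data were seen). The replicate block gave -1.49, -1.46, -1.42 and -1.57 for Hba-a1, Hba-a2, Hbb-bs and Alas2 and changed no call. Among list genes, none called by edgeR, signs turned when 1 library was left out: Abcb10 (-0.14 to 0.21), Abcg2 (-0.19 to 1.58), Alas1 (-0.12 to 0.030), Aqp1 (-0.14 to 0.64), Bach1 (-0.19 to 0.075), Cygb (-0.98 to 0.63), Fth1 (-0.13 to 0.045), Hmox1 (-0.35 to 0.24), Itga2b (-0.43 to 0.30), Lrp1 (-0.44 to 0.46), Pecam1 (-0.53 to 0.45), Tfrc (-0.62 to 0.027) and Vwf (-0.90 to 0.18). Signs also turned for Hmox1 with RLE factors (0.00064), for Abcb10 (-0.018) and Itga2b (-0.044) with library totals only, for Cygb (-0.32), Itga2b (-0.072), Pecam1 (-0.10) and Lrp1 (-0.21) with the block, and for Cygb (-0.26), Itga2b (-0.10), Pecam1 (-0.087) and Lrp1 (-0.25) on voom weights. Signs held but values moved widely without 1 library for Tek (0.35 to 1.34), Abcb6 (0.14 to 0.50), Hfe (0.13 to 0.68), Mmp9 (-1.55 to -0.20), Ppbp (-2.25 to -0.24), Ltf (-2.16 to -0.35), Pf4 (0.078 to 0.63), Mb (0.63 to 1.57) and Klf1 (-0.52 to -0.030). The cause was not tested. Low counts limit Alas2 (21 to 40 counts outside scrambled 1) and Klf1.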
